A study of Homo sapiens with 45 samples.

Results

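The response of RNF25 knockout (KO) HAP1 cells to halofuginone (HF) was measured in 6 of the 45 libraries of the series, the 3 RNF25 KO libraries labelled as HF and the 3 labelled as untreated RNF25 KO, chosen by those labels alone. HAP1 is an adherent human line that the labels describe as near-haploid and derived from KBM-7, a leukaemia line. All cultures of the series grew in the same serum-containing medium, and treated cells received 25 nM HF or 5 uM azacytidine (azaC) for 4 h. The groups set beside the 6 libraries were AAVS1 cells with HF and untreated, GCN2 KO cells with HF and untreated, and RNF25 KO cells with azaC, each with 3 libraries. AAVS1 names a genomic site often edited as a neutral control, and that line served as the reference. The labels call the libraries biological replicates and say nothing more on how cultures were separated, on the number of clones behind a knockout or on the kind of mutation, so the p-values measure the spread between these libraries. Messenger RNA was selected by its polyA tail before sequencing.

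HF blocks the charging of proline tRNA by the glutamyl-prolyl-tRNA synthetase EPRS1. Uncharged tRNA and stalled ribosomes activate the kinase GCN2, encoded by EIF2AK4, which phosphorylates the translation initiation factor eIF2. General translation then falls while the transcription factor ATF4 is made, and ATF4 with its C/EBP partners raises genes for amino acid synthesis, amino acid import and tRNA charging; this program is the integrated stress response. RNF25 is a ubiquitin ligase that acts on the small ribosomal subunit at stalled ribosomes, and azaC is a cytidine analogue that is built into RNA and DNA. The series title concerns RNF25, mRNA damage by azaC and the integrated stress response, and HF in these cells asks how the response runs when GCN2 is activated through a tRNA without its amino acid in cells labelled as lacking RNF25.

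Library totals of the 6 libraries ran from 1278486 to 1646385 counts, against 1135498 to 2478875 over the series. Levels are CPM, counts rescaled to a common library size after TMM scaling (which sets libraries level on the bulk of their genes), in the order of replicates 1, 2 and 3. Transcripts of RNF25 could not check the label: its counts were 1, 1 and 4 in untreated and 3, 0 and 0 in HF-treated RNF25 KO libraries, and no library of the series held more than 7. EIF2AK4, at chr15:39934146-40035591 on GRCh38, was at 46.4, 64.2 and 64.4 CPM untreated and 48, 55.7 and 51 CPM with HF, so GCN2 transcripts were present in RNF25 KO cells. Of 15 haematopoietic markers, 12 were at 0 counts in the untreated and 11 in the HF group, PTPRC, GATA1 and SPI1 among them, although KBM-7 came from a leukaemia. The fibroblast markers COL1A2 and COL3A1 and the epithelial markers CDH1 and EPCAM were at 0 in both groups as well. So were the neural markers GFAP, NEFM, RBFOX3, STMN2 and TUBB3. The members with the most counts were TAL1 (haematopoietic), PDGFRA (fibroblast), KRT18 (epithelial) and NES (neural). Their untreated means were 26.9, 21.6, 57.0 and 145.7 CPM, in that order. Summed levels over these lists ran from 20.8 to 34.6 CPM (haematopoietic), 29.6 to 42.4 CPM (fibroblast), 61.9 to 79.2 CPM (epithelial) and 164 to 217 CPM (neural) untreated, and from 22.2 to 25.2, 23.8 to 35.5, 43.8 to 74.9 and 172 to 195 CPM with HF. Mitochondrial transcripts took 7.15 to 7.85% of counts untreated and 5.17 to 7.30% with HF.

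HF raised a set of amino acid stress genes in RNF25 KO cells and lowered a set of cytosolic chaperones. The genes with the smallest p among those raised were SESN2, STC2 and SLC7A11, and the genes with the smallest p among those lowered were HSPA8 and DNAJA1. Of 11078 genes tested with edgeR's quasi-likelihood test, 136 (1.23%) were higher and 56 (0.506%) lower at a Benjamini-Hochberg adjusted p under 0.05. More than 2-fold changes made up 97 of the 136 and 31 of the 56, and the median log2 fold change was 1.28 among genes called higher, -1.08 among genes called lower and 0.0015 over all genes tested. The HF libraries lay wholly above the untreated ones for all 136 and wholly below for 55 of the 56, against 8.45% and 6.90% of all genes tested. The genes were called on these same libraries, which favours such separation, so it describes the calls and is no separate support for them. The libraries are bulk samples, so fewer cells with a transcript and less RNA per cell cannot be told apart. Errors after ± are standard errors (SE) of log2 fold changes, and adjusted p are those of edgeR's quasi-likelihood test throughout. The number called fell from 192 to 111 without HF replicate 2 and to 121 without HF replicate 1.

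**Figure D1:**
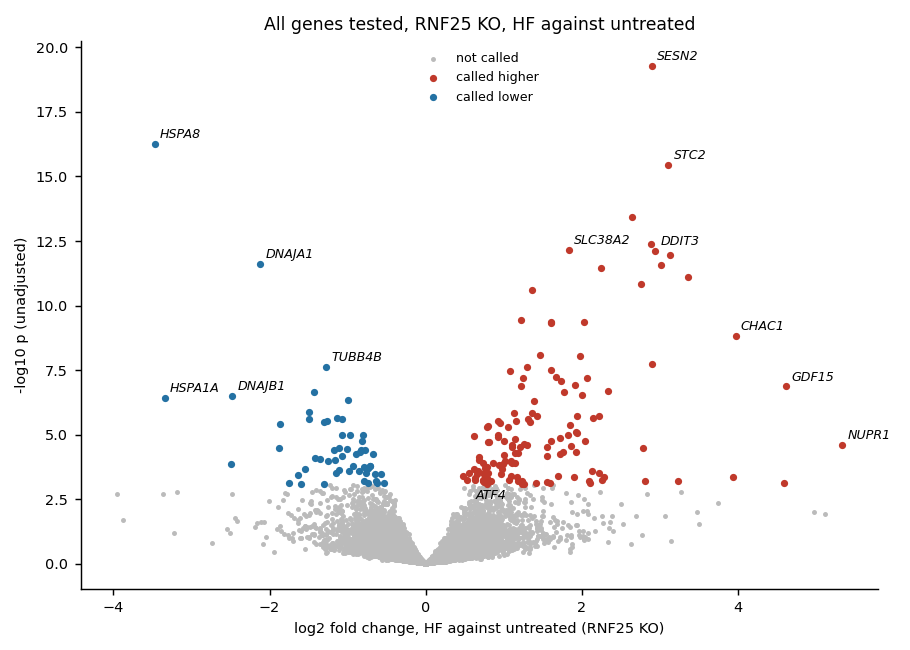
Each point is 1 of 11078 genes; the horizontal axis is the log2 fold change of HF against untreated in RNF25 KO cells and the vertical axis -log10 of the unadjusted p of edgeR's quasi-likelihood test. The 136 red points are called higher and the 56 blue points lower at an adjusted p under 0.05; SESN2 and HSPA8 have the smallest p on either side.

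Members of the first steps of the pathway showed little change in transcript level. EPRS1, the target of HF, was at 180.0, 274 and 207 CPM untreated and 292, 324 and 282 CPM with HF, and the HF libraries lay above the untreated ones, with a log2 difference of 0.44 ± 0.22 (SE), adjusted p = 0.451 in edgeR. EIF2AK4 had a log2 difference of -0.18 ± 0.22 (adjusted p = 0.866). ATF4, which is controlled mainly at translation, was at 467, 520.1 and 493 CPM untreated and 712, 561 and 928 CPM with HF. Its log2 difference of 0.57 ± 0.19 did not pass (adjusted p = 0.144), though it did in 1 of 11 alternative fits. None of 13 tested eIF2 kinases and GCN2 regulators was called; the smallest p were those of ABCF1 (-0.43, adjusted p = 0.121) and DRG1 (-0.41, adjusted p = 0.258). Among 15 subunits of eIF2, of its exchange factor eIF2B and of eIF2 phosphatase, 2 rose. EIF2S2, the beta subunit of eIF2, went from 476, 429 and 499.7 to 705, 732 and 715 CPM (0.61, adjusted p = 0.00184), and PPP1R15A, which directs phosphatase to eIF2, from 12, 19.1 and 13 to 60.3, 34.4 and 23.9 CPM (1.42, adjusted p = 0.0443). The PPP1R15A call was lost without any 1 of the untreated libraries and without HF replicate 1 or 2, with an adjusted p of up to 0.436; that of EIF2S2 was lost when the fit held only the 6 libraries and with no filter on low counts.

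Stress transcription factors rose in 7 of 17 tested members of that list and fell in none, where 1.23% of all genes tested were called higher; the list median was 0.68. DDIT3 (also CHOP) was at 21.6, 22.2 and 16.1 CPM untreated and 158, 135 and 165 CPM with HF, a log2 difference of 2.94 ± 0.29 (SE), adjusted p = 1.2e-09. Every HF library stood above every untreated one. CEBPB, a C/EBP partner of ATF4, went from 9.6, 17.9 and 20.4 to 133, 99.6 and 99.4 CPM (2.76 ± 0.31 (SE), adjusted p = 1.23e-08). ATF3, which is induced by many stresses, went from 3.2, 16.7 and 17.3 to 111, 112.7 and 65.2 CPM (2.90 ± 0.42 (SE), adjusted p = 8.89e-06). Its untreated replicate 1 lay lowest, and HF replicate 3 lowest among the treated. XBP1, a factor of the endoplasmic reticulum (ER) stress response, rose from 42.4, 67.3 and 55.7 to 225, 163 and 140.1 CPM (1.67 ± 0.26), CEBPG by 1.33 and JDP2 by 1.56, the last call lost without untreated replicate 2 or 3 or HF replicate 1 (adjusted p up to 0.0814). NUPR1, a small nuclear protein of the stress response, was called on low counts, 0, 1 and 0 untreated and 18, 9 and 31 with HF, and no fold is given because it depends on the prior count. DDIT3 shares 31.6% of its exon length with genes on the opposite strand, and whether counting used strand is not given in the sources used here.

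Where ATF4 and C/EBP proteins bind together, the site often reads TGATGNAA, with N any base. The 250 bases before the RefSeq starts (GRCh38.p14) were searched on both strands for it and for TGACGTCA, the palindrome known as the cyclic AMP response element; no stretch can match both patterns at the same position. A window was at hand for 118 of the 136 genes called higher, and 12 of these held TGATGNAA (10.2%), against 0 of 47 genes called lower (0%) and 200 of 8582 genes tested (2.33%). TGACGTCA was in 4 of 118 (3.39%), 1 of 47 (2.13%) and 329 of 8582 (3.83%). Genes can have several starts, 210 for the 118 genes called higher, 55 for the 47 called lower and 12723 for the 8582, and a match is a description of letters only. The other genes called higher that held TGATGNAA were HRK, CEBPG, GARS1, MIR99AHG, JDP2, ARID5B, TBL1X and FOXP1. Several of these calls were unsteady. Those of FOXP1, TBL1X, ARID5B, JDP2 and MIR99AHG were lost in 8, 7, 3, 3 and 1 of 11 alternative fits. Their adjusted p in edgeR or DESeq2 reached 0.633, 0.401, 0.0697, 0.0814 and 0.0643, in that order. The 4 shown here have the smallest p among the 12; capitals mark the match, which reads TTNCATCA where it lies on the opposite strand. Bases inside an annotated exon of GENCODE 29 are left out, so that HERPUD1 (chr16:56931892-56932047, + strand) is shown over 156 bases and ATF3 (chr1:212565157-212565333, + strand) over 177, while CHAC1 (chr15:40953251-40953280, + strand) and AARS1 (chr16:70289675-70289704, - strand), whose matches lie inside annotated exons, are shown as 30 bases around the match.
HERPUD1: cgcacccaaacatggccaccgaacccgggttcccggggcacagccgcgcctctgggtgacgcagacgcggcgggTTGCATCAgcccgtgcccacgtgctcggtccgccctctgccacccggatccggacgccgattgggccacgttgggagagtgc
CHAC1: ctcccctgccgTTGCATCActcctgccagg
ATF3: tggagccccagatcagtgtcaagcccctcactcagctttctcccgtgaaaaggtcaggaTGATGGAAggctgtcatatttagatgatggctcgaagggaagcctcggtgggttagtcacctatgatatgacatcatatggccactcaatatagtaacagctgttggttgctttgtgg
AARS1: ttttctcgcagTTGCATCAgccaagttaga
The match began 176 bases before the start in HERPUD1, 209 in CHAC1, 191 in ATF3 and 187 in AARS1. The level of HERPUD1, an ER membrane protein of protein degradation, rose from 57.6, 43.2 and 50.2 to 172, 118 and 167 CPM (1.60 ± 0.20 (SE), adjusted p = 2.76e-07).

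Inhibitors of growth signalling held some of the highest changes. SESN2, at chr1:28259527-28282491, encodes a leucine sensor that restrains the growth kinase complex mTORC1. It was at 67.2, 70.4 and 70.6 CPM untreated and 549, 465 and 535 CPM with HF, a log2 difference of 2.89 ± 0.18 (SE), adjusted p = 5.62e-16, and the libraries of a group lay close together. DDIT4, another mTORC1 inhibitor, went from 13.6, 30.9 and 6.81 to 215, 167 and 150.5 CPM (3.36 ± 0.36 (SE), adjusted p = 7.09e-09), with untreated replicate 3 lowest and replicate 2 highest of the untreated. The pseudokinase TRIB3, which restrains AKT and ATF4, went from 15.2, 21 and 24.1 to 243, 127 and 123 CPM (3.01 ± 0.32 (SE), adjusted p = 2.87e-09); HF replicate 1 was the highest. These 3 were the genes called among 13 tested of the list of mTORC1 and kinase inhibitors, whose median was 0.43. DDIT4 shares 41.2% of its exon length with an antisense gene. TSC22D3, a leucine zipper protein known as a glucocorticoid target and in no list, rose from 92.8, 76.6 and 79.3 to 672, 619 and 542 CPM (2.88 ± 0.28).

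Among 13 tested genes of glutathione and cysteine supply, 4 rose and none fell, with a list median of 0.11. SLC7A11, the cystine importer at chr4:138164097-138242349, went from 47.2, 46.3 and 26 to 270.4, 243 and 231 CPM (2.64 ± 0.24 (SE), adjusted p = 1.06e-10). CTH, which makes cysteine from cystathionine, went from 9.6, 5.56 and 13.6 to 109, 69.5 and 75.6 CPM (3.14 ± 0.32 (SE), adjusted p = 1.48e-09). CHAC1, which breaks down glutathione, went from 8, 8.03 and 1.24 to 91.3, 82.7 and 93.6 CPM (3.97 ± 0.52 (SE), adjusted p = 8.72e-07). In these genes the HF libraries lay above the untreated ones without overlap, and CHAC1 in untreated replicate 3 rested on 2 counts. SLC3A2, the heavy chain that partners SLC7A11 and other transporters, went from 208, 211 and 243 to 631, 509 and 569.5 CPM (1.37 ± 0.15).

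Amino acid transporters rose in 7 of 20 tested members and fell in none, with a list median of 0.78. SLC38A2, a sodium-coupled importer of neutral amino acids, proline among them, went from 70.4, 71 and 53.9 to 202, 212 and 279.6 CPM (1.83 ± 0.18 (SE), adjusted p = 1.2e-09). SLC7A1, the importer of cationic amino acids, went from 66.4, 74.7 and 71.2 to 219, 187 and 183 CPM (1.47 ± 0.21 (SE), adjusted p = 4.42e-06). The others that rose were SLC7A11, SLC3A2, SLC1A4 (1.97), SLC6A9 (2.14) and SLC7A5 (1.15).

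Serine, glycine and one-carbon synthesis had 5 members higher and 1 lower of 13 tested, with a median of 0.34. MTHFD2, a mitochondrial folate enzyme, went from 176, 169.9 and 209 to 432, 386 and 471 CPM (1.22 ± 0.15 (SE), adjusted p = 2.6e-07). PSAT1 and PSPH act after PHGDH in serine synthesis. PSAT1 went from 249.6, 252 and 282 to 489, 685 and 756 CPM (1.30 ± 0.19), PSPH rose by 1.31 and PHGDH by 0.79 on the log2 scale. SHMT2, which makes glycine from serine in mitochondria, rose by 1.22. The member that fell was MAT2A, which makes S-adenosylmethionine (-0.74 ± 0.18, adjusted p = 0.0167); its call was lost without untreated replicate 1 or 3 or HF replicate 1 or 2 (adjusted p up to 0.208). MTHFD2 shares 33.2% of its exon length with genes on the opposite strand. Of 14 tested enzymes of proline, asparagine, aspartate, glutamate and alanine metabolism, 2 rose. PCK2, the mitochondrial phosphoenolpyruvate carboxykinase, went from 28, 22.2 and 30.3 to 129, 126 and 127 CPM (2.25 ± 0.24 (SE), adjusted p = 3.43e-09), and GPT2, an alanine aminotransferase, from 124, 82.8 and 94.7 to 259, 308 and 351 CPM (1.61 ± 0.24). Asparagine synthetase, ASNS, had 20 counts over all 45 libraries and was not tested.

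Cytosolic tRNA synthetases and their partners rose in 5 of 25 and fell in none, with a list median of 0.22. CARS1, which charges cysteine tRNA, went from 102, 151 and 119 to 338, 279 and 269.9 CPM (1.25 ± 0.19 (SE), adjusted p = 2.47e-05). AARS1, for alanine, went from 120.0, 141 and 155 to 361, 249 and 303 CPM (1.13 ± 0.20). SARS1 for serine rose by 0.95, GARS1 for glycine by 0.80 and the tRNA exporter XPOT by 0.84, whose call was lost without any 1 of the 6 libraries (adjusted p up to 0.231). None of 16 mitochondrial tRNA synthetases was called; their median was -0.13, and SARS2 (0.64) and NARS2 (-0.52) had the smallest p, with adjusted p of 0.675 and 0.7 and library values that overlapped between groups.

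Secreted stress factors rose in 3 of 6 tested members. STC2, a secreted glycoprotein at chr5:173314713-173329503, went from 60, 71.7 and 66.9 to 739, 469.7 and 510.1 CPM (3.11 ± 0.25 (SE), adjusted p = 1.27e-12). GDF15, a cytokine of cell stress, had 0, 2 and 18 counts untreated and 232, 97 and 202 with HF (4.62 ± 0.74 (SE), adjusted p = 4.37e-05). Of the untreated counts of GDF15 18 lay in replicate 3, and with 1 library left out its log2 difference ran from 4.12 to 7.14, the highest without that library. VEGFA, the vascular growth factor, went from 11.2, 32.7 and 20.4 to 58.5, 80.2 and 60.1 CPM (1.60 ± 0.33), and this call was lost without untreated replicate 1 (adjusted p = 0.0536).

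Cell death and growth arrest genes rose in a few members. PMAIP1 (NOXA), a BH3-only protein that favours apoptosis, went from 34.4, 56.2 and 34.1 to 158, 200.4 and 151 CPM (2.02 ± 0.25 (SE), adjusted p = 2.76e-07). HRK, another BH3-only protein, went from 8.8, 6.79 and 9.29 to 39.2, 38.8 and 38.7 CPM (2.22 ± 0.40). They were the 2 called of 16 tested of the BCL2 and death receptor list. Of 17 tested p53 targets and growth arrest genes, BTG1, an antiproliferative factor (1.61 ± 0.20), and GADD45A, which rises on DNA damage and other stress (2.01 ± 0.33), were called higher and none lower. TXNIP, the thioredoxin-binding arrestin, was the only one called of 9 tested arrestin relatives, from 26.4, 29 and 22.3 to 112, 139 and 74.3 CPM (2.07 ± 0.32). Immediate early genes had 3 of 18 tested called higher, the zinc finger factors KLF10 (1.83 ± 0.37), KLF6 (1.09 ± 0.28) and KLF2, which had 4, 1 and 2 counts untreated and 24, 26 and 7 with HF. The median of that list was -0.0022 and its lowest member lay at -1.48. JUN was at 19.2, 32.1 and 29.1 CPM untreated and 76.1, 61.4 and 26.5 CPM with HF, where HF replicate 3 lay within the untreated range (1.02 ± 0.47, adjusted p = 0.398). The KLF6 and KLF2 calls were lost without untreated replicate 2 or 3 and without HF replicate 1 or 2.

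**Figure D2:**
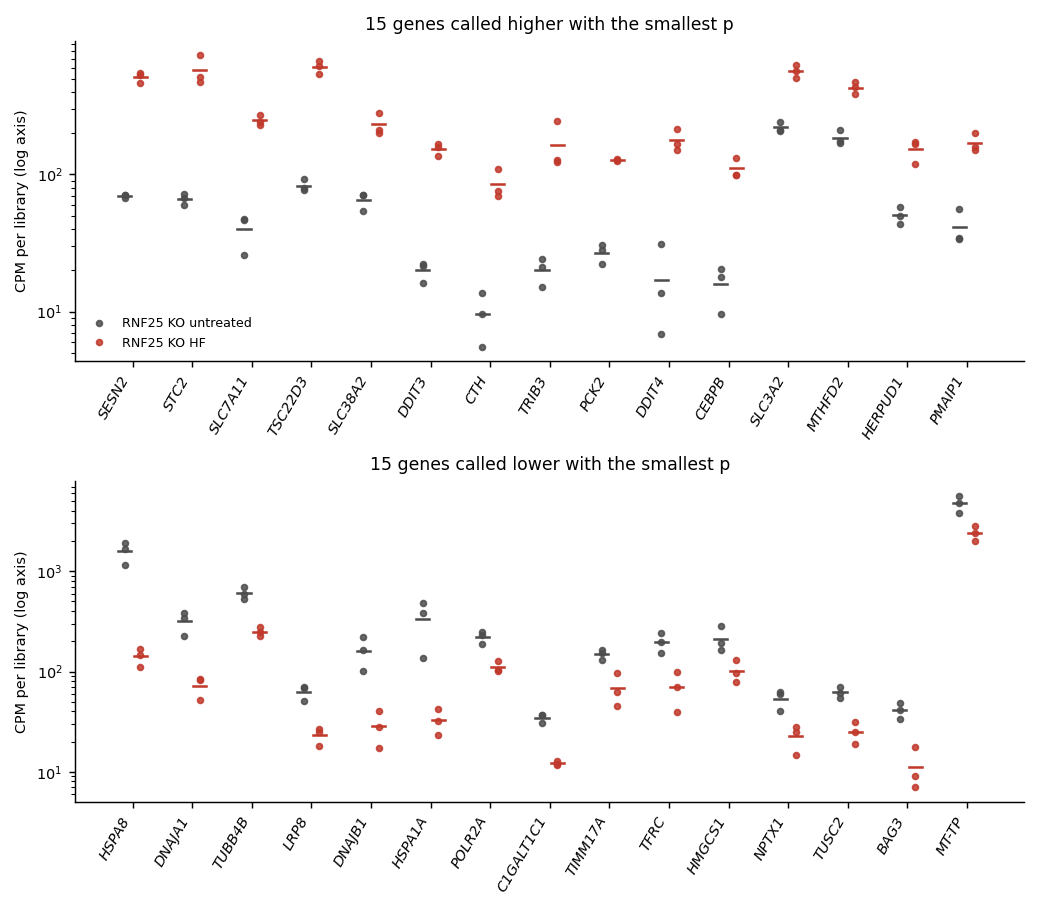
Points are the CPM of single libraries on a log axis and short lines the mean of 3, untreated in grey and HF in red, for the 15 genes called higher (upper panel) and the 15 called lower (lower panel) with the smallest p. In SESN2 the untreated libraries sit between 67.2 and 70.6 CPM and the HF libraries between 465 and 549 CPM.

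Cytosolic chaperones fell. Of 22 tested heat shock genes and chaperones 6 were lower, where 0.506% of all genes tested were called lower, and none higher, with a list median of -0.53. HSPA8, at chr11:123057489-123063230, the constitutive HSP70 that folds new proteins, was at 1926, 1672 and 1165 CPM untreated and 112, 148 and 169 CPM with HF, a log2 difference of -3.47 ± 0.26 (SE), adjusted p = 2.99e-13. Its J-domain partner DNAJA1 went from 339, 382 and 227 to 52.1, 83.9 and 81.4 CPM (-2.13 ± 0.22 (SE), adjusted p = 2.87e-09). In both genes untreated replicate 3 was the lowest of its group and still above every HF library. The stress-induced partner DNAJB1 went from 220.0, 163 and 102 to 28.1, 40.7 and 17.4 CPM (-2.48 ± 0.41), and the exchange factor BAG3 from 48, 41.4 and 33.4 to 7.02, 17.5 and 9.04 CPM (-1.86 ± 0.35). HSPA1A, the inducible HSP70, went from 483, 383 and 137 to 42.7, 31.9 and 23.2 CPM (-3.34 ± 0.56), and its near-identical copy HSPA1B had 11, 13 and 4 counts untreated and 7, 0 and 0 with HF, so the division of reads between the copies is uncertain. HSPE1, the mitochondrial co-chaperonin, fell by 1.11, a call lost without HF replicate 1 or 2 (adjusted p up to 0.101). HSPA5, the ER HSP70 known as BiP, was the member of the ER list that fell, from 1029, 919 and 755 to 522, 447 and 581 CPM (-0.80 ± 0.16), while HERPUD1 was the one that rose of the 22 tested. The other 20 were not called, and the ER list median was -0.24.

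Cholesterol synthesis and uptake had 5 of 22 tested members lower and none higher, with a median of -0.38. HMGCS1, an early enzyme of the pathway, went from 194, 162 and 282 to 78.4, 95.8 and 129 CPM (-1.07 ± 0.20 (SE), adjusted p = 0.000543). Its replicate 3 was the highest in both groups, and the HF libraries lay below the untreated ones. MSMO1 (-1.36), NSDHL (-0.90) and the feedback protein INSIG1 (-1.60) were among the others that fell. The calls of MSMO1, NSDHL and INSIG1 were each lost without HF replicate 1 and without HF replicate 2, and all but NSDHL without untreated replicate 3, with an adjusted p of up to 0.212, 0.0823 and 0.515.

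Other genes with the smallest p among those lowered had varied roles. The beta-tubulin TUBB4B went from 700.0, 597 and 526 to 276, 228 and 248 CPM (-1.28 ± 0.19 (SE), adjusted p = 1.12e-05). The reelin receptor LRP8 (-1.44 ± 0.23), the transferrin receptor TFRC (-1.50 ± 0.28) and the largest RNA polymerase II subunit POLR2A (-0.99 ± 0.17) fell. So did C1GALT1C1, the chaperone of a glycosyltransferase (-1.50 ± 0.27), the mitochondrial import subunit TIMM17A (-1.14 ± 0.21), the neuronal pentraxin NPTX1 (-1.27 ± 0.24) and TUSC2 (-1.30 ± 0.24). Counts over MT-TP, the mitochondrial proline tRNA gene, went from 4766, 3823 and 5657 to 2423, 2006 and 2843 CPM (-0.97 ± 0.19). Another mitochondrial tRNA gene, MT-TM, was called lower too (-1.30, adjusted p = 0.0478 in edgeR), so the fall was not confined to the proline tRNA gene. RNA was selected by its polyA tail, so these falls need not be of the mature tRNAs. The share of counts from mitochondrial transcripts, 5.17 to 7.30% with HF and 7.15 to 7.85% untreated, overlapped between the groups. Its part in these results was not tested. None of the 13 mitochondrial mRNAs was called. Their median was -0.36, MT-ND1 (-0.73, adjusted p = 0.249) and MT-ND4L (-0.51, adjusted p = 0.295) having the smallest p.

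Several lists had few or no calls. None of 76 tested cytosolic ribosomal protein genes was called, with a median of -0.13 and the smallest p in RPL24 (-0.47, adjusted p = 0.0923) and RPL23 (-0.34, adjusted p = 0.274). Among 34 ribosome biogenesis genes only NOP16 was called (-0.71 ± 0.17). None of 28 ribosome collision and quality control genes was called; ZNF598, a ubiquitin ligase of collided ribosomes, was at 57.6, 59.3 and 71.8 CPM untreated and 120.0, 97.7 and 78.8 CPM with HF (adjusted p = 0.0691), and VCP at a log2 difference of -0.46 (adjusted p = 0.0816). Of 16 snoRNA host transcripts, 2 rose, SNHG1 from 295, 315 and 355 to 764, 658 and 617 CPM (1.08 ± 0.16) and SNHG7 (0.68 ± 0.15). None of 13 nonsense-mediated decay factors was called, with SMG9 (0.84) and UPF3B (0.37) having the smallest p. NRF2 target and redox genes had SLC7A11 higher and PRDX1, a peroxiredoxin (-0.68 ± 0.15), lower of 20. Calls were lost without untreated replicate 2 or HF replicate 1 for NOP16 (adjusted p up to 0.247), without untreated replicate 3 for SNHG7 (0.105) and without HF replicate 2 for PRDX1 (0.119). No call was made among 18 autophagy genes (NBR1 0.48, ATG7 1.00), 24 S phase genes (CDT1 0.81, CDC6 0.45), 20 G2 and M phase genes (CCNB1 -0.72, KIF20A -0.44) or 16 collagen, matrix and TGF-beta targets (TGFBR2 -1.10, SKIL 0.63). Of the marker lists, SOX2 was the only called gene (0.76 ± 0.20, adjusted p = 0.0258), and its call was lost in 8 of 11 alternative fits. TAL1 (-0.20), COL1A1 (-0.62), PDGFRA (-0.07) and KRT18 (-0.24) were not called.

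**Figure D3:**
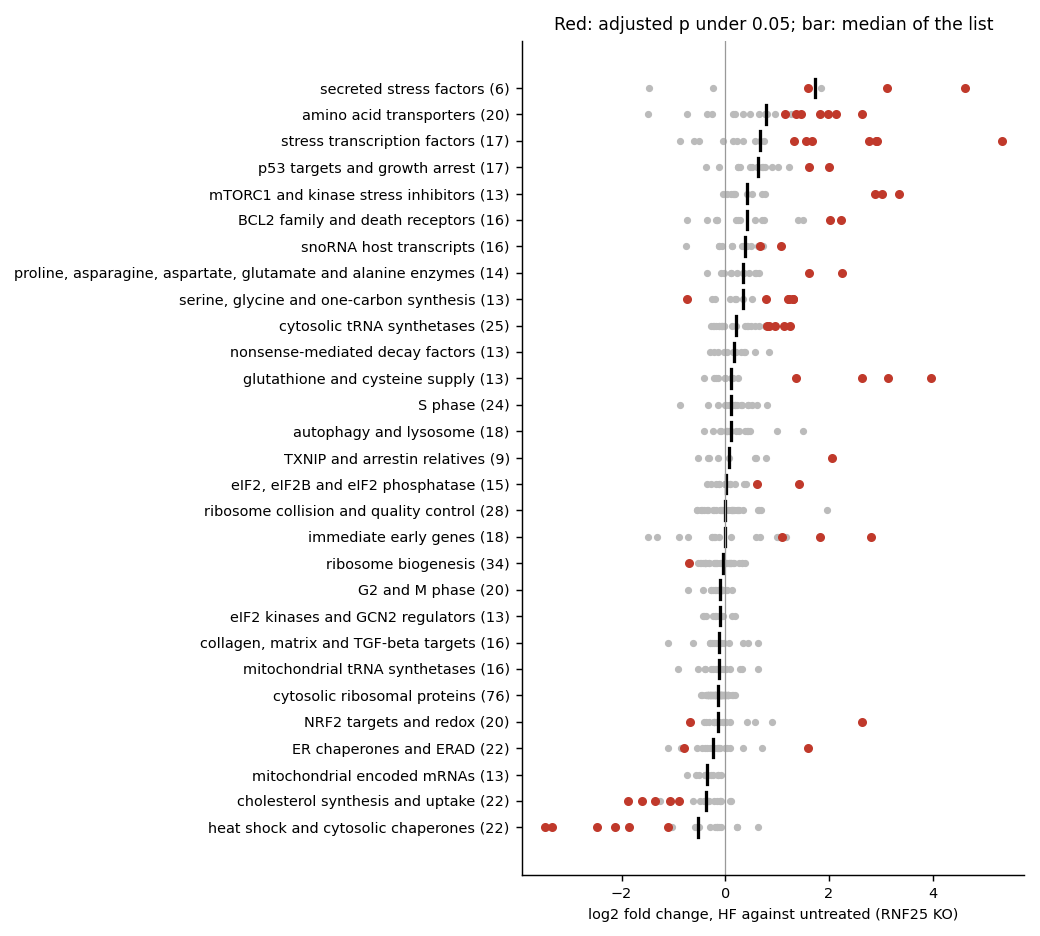
Points are the log2 fold changes of HF against untreated in RNF25 KO cells for the tested members of each list (number in brackets), red where the adjusted p was under 0.05, and black bars the list medians. The heat shock list lies lowest with a median of -0.53, and the secreted stress factors highest with 1.72 over 6 genes.

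The HF response of RNF25 KO cells was next set beside that of AAVS1 cells, which shares no library with it. HF raised 117 genes (1.06%) and lowered 54 (0.487%) in AAVS1 cells. Of the 136 genes called higher in RNF25 KO cells 72 were called higher in AAVS1 too, 52.9% of the first set and 61.5% of the second, and 131 had a positive difference there. Of the 56 called lower 27 were called lower in AAVS1, 48.2% of the first set, and 27 of 54 of the second. The median log2 fold change of these 136 and 56 genes in AAVS1 was 1.02 and -0.79. AAVS1 untreated replicate 2 lay farthest from its group of all libraries; without it AAVS1 had 99 genes higher and 34 lower, 69 and 20 of them called in RNF25 KO cells.

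The test of the difference between the responses called no gene (0%) of 11078. At an unadjusted p under 0.05 there were 292, a number that was 598 without AAVS1 untreated replicate 3 and 188 with only the 12 libraries compared, and the smallest adjusted p was 0.9998. DESeq2's Wald test called none either, and edgeR without a filter on low counts called 2 genes, the pseudogenes SERBP1P1 and PSMD4P1. PSMD4P1 had 0, 3 and 63 counts in untreated and 45, 38 and 0 in HF-treated RNF25 KO libraries. Genes called in RNF25 KO and not in AAVS1 cells were therefore not shown to respond differently in these 2 lines. Over the 136 genes the interval of the difference, at 95% and unadjusted, had a median width of 1.44 log2 units, and it lay within -1 and 1 for 62 of them. It included 0 for 125 of the 136 and for 52 of the 56 genes called lower. The response was the larger one in RNF25 KO cells for 89 of the 136 and 41 of the 56, a direction that choosing genes by their call in RNF25 KO cells favours. SESN2 responded with 2.89 in RNF25 KO and 3.35 in AAVS1 cells, a difference of -0.46 (interval -0.96 to 0.03). SLC7A11 responded with 2.64 and 2.62 (interval of the difference -0.64 to 0.68), and HSPA8 with -3.47 and -3.26 (interval -0.89 to 0.48). CHAC1 had 3.97 and 5.60 (interval -3.45 to 0.19), and DDIT4 3.36 and 4.25 (interval -1.98 to 0.19). Among the 136 genes most intervals that left out 0 lay above 0, the side that this choice of genes favours. NIT1, an amidase of glutathione by-products, was one of these, at 2.22 and -0.50 (interval 1.21 to 4.23). PCK2 lay on the other side, at 2.25 and 3.05 (interval -1.50 to -0.11). Both were chosen here after their values were seen. NIT1 was at 2.4, 2.47 and 2.48 CPM untreated and 11.7, 15.7 and 7.75 CPM with HF in RNF25 KO cells, and its call there was lost without any 1 library other than HF replicate 3 (adjusted p up to 0.145). The smallest unadjusted p were those of SS18, a chromatin remodelling subunit (1.48 ± 0.39), BNIP3, a mitophagy receptor (1.26 ± 0.33), and CAMKV, a kinase-like protein (-1.84 ± 0.49); none passed.

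Against GCN2 KO cells the response differed in named genes of the stress program. HF raised 81 genes (0.731%) and lowered 56 (0.506%) in GCN2 KO cells. Of the 136 genes called higher in RNF25 KO cells 18 were called higher in GCN2 KO, 13.2% of the first set and 22.2% of the second, with a median there of 0.39. Of the 56 called lower 12 were shared, 21.4% of either set, with a median of -0.50. The test of the difference called 28 genes (0.253%) with a higher and 2 (0.0181%) with a lower response in RNF25 KO cells. Of the 136 genes 23 were among those called, and of the 56 lowered genes 1, TUBB4B, whose response differed by -1.14 ± 0.26 (adjusted p = 0.0314; lost without any 1 of 8 of the 12 libraries). The other gene with a lower response was HES1, a Notch target, at a log2 difference of 0.47 in RNF25 KO and 2.42 in GCN2 KO cells.

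SLC38A2 was at 88.8, 101 and 112.9 CPM untreated and 66.2, 74.4 and 76.6 CPM with HF in GCN2 KO cells, where its log2 difference was -0.48 ± 0.18. Against 1.83 in RNF25 KO cells this gave a difference of 2.31 ± 0.26 (SE), adjusted p = 1.14e-07. SESN2 went from 73.6, 71.4 and 58.8 to 122, 90.9 and 141 CPM in GCN2 KO cells, a smaller rise that passed there (0.80 ± 0.18, adjusted p = 0.0109), and the responses differed by 2.10 ± 0.25 (adjusted p = 4.15e-07). STC2 (2.67 ± 0.34), SLC7A11 (2.60 ± 0.34), XBP1 (2.40 ± 0.37), DDIT4 (3.86 ± 0.64) and SNHG1 (1.34 ± 0.23) differed likewise, and in GCN2 KO cells their log2 differences were 0.44, 0.05, -0.73, -0.51 and -0.27. HERPUD1 fell in GCN2 KO cells (-0.80 ± 0.21, adjusted p = 0.0469) and rose in RNF25 KO cells, a difference of 2.40 ± 0.29. It was the only gene of the 136 called in the opposite direction in GCN2 KO cells.

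The smallest p of this comparison belonged to EIF5, a GTPase-activating initiation factor that works with eIF2. It went from 266, 277 and 217 to 92.2, 96.4 and 94.9 CPM in GCN2 KO cells (-1.42 ± 0.14, adjusted p = 2.1e-09), and from 242, 212 and 248 to 273, 332 and 291 CPM in RNF25 KO cells (0.35 ± 0.13, adjusted p = 0.236). NDUFB9, a subunit of respiratory complex I, had the same shape, with -1.52 ± 0.17 in GCN2 KO and -0.09 ± 0.16 in RNF25 KO cells. In both genes the called difference came with a fall in GCN2 KO cells and no called change in RNF25 KO cells.

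Other genes moved in all 3 lines. Called higher in each were 11 genes, SESN2, DDIT3, SLC3A2, PMAIP1, BTG1, SLC1A4, TXNIP, NOG, FOXC1, PIM1 and GADD45A. Called lower in each were 9, HSPA8, DNAJA1, DNAJB1, HSPA1A, HSPA5, POLR2A, TFRC, POP1 and MT-TP. The log2 differences of HSPA8 were -3.47 in RNF25 KO, -3.26 in AAVS1 and -3.05 in GCN2 KO cells, and those of DNAJA1 -2.13, -1.89 and -1.99. PMAIP1 rose by 2.02, 2.45 and 1.70, GADD45A by 2.01, 2.19 and 2.17, and TXNIP by 2.07, 1.75 and 3.17. DDIT3 rose by 2.94, 3.38 and 1.62, and the difference between RNF25 KO and GCN2 KO cells of 1.31 ± 0.43 did not pass (adjusted p = 0.41). Called higher in RNF25 KO and GCN2 KO but not in AAVS1 cells were 7 genes, KLF10, KLF6, KITLG, SMAD1, KATNA1, PCDH18 and CDKN2AIP; only the KLF10 and KITLG calls in RNF25 KO cells held without each of the 6 libraries in turn. The PIM1 call in RNF25 KO cells was lost without untreated replicate 2 (adjusted p = 0.0597).

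**Figure D4:**
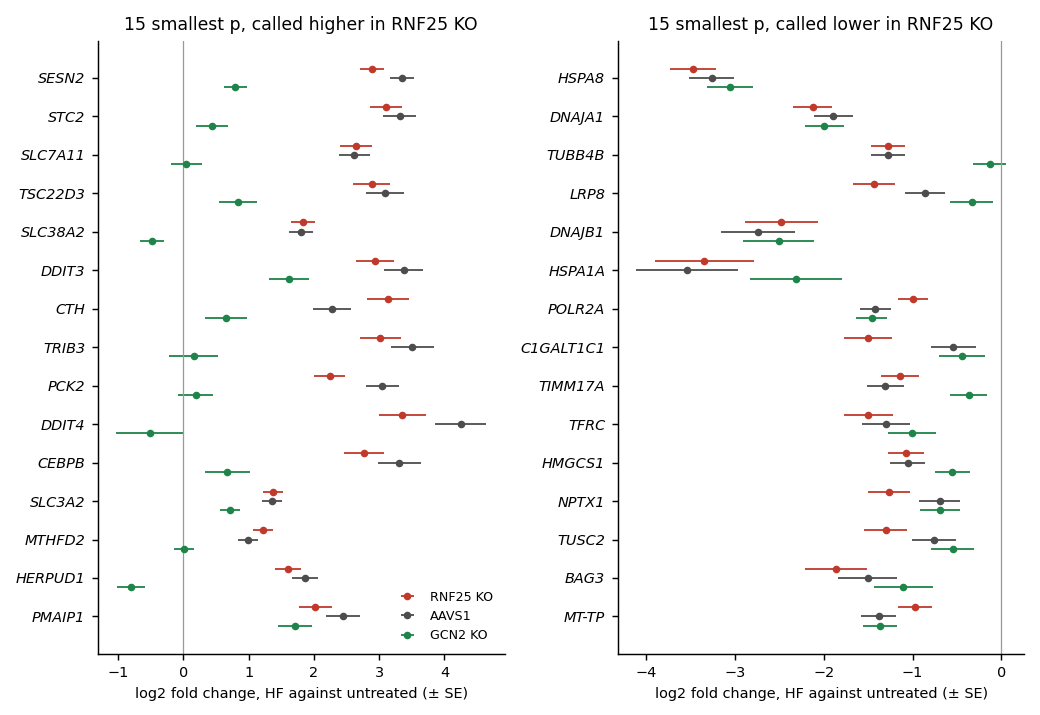
Points are log2 fold changes of HF against untreated with their SE for the 15 genes called higher (left) and 15 called lower (right) in RNF25 KO cells with the smallest p, in RNF25 KO (red), AAVS1 (grey) and GCN2 KO (green). SLC7A11 lies at 2.64, 2.62 and 0.05, while HSPA8 lies at -3.47, -3.26 and -3.05.

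HF was last compared with azaC within RNF25 KO cells, each for 4 h at its own dose. HF libraries had 33 genes higher (0.298%) and 48 lower (0.433%) than azaC libraries. HSPA8 was at 112, 148 and 169 CPM with HF and 672, 1015 and 621 CPM with azaC (-2.43 ± 0.25 (SE), adjusted p = 2.24e-08), against 1926, 1672 and 1165 CPM untreated. DNAJA1 was at 228, 201 and 192 CPM with azaC (-1.52 ± 0.22 (SE), adjusted p = 9.2e-05). The azaC libraries thus stood above the HF libraries in both, without overlap. JAG2, a Notch ligand, was at 44.5, 43.2 and 27.8 CPM with HF and 82.5, 141 and 89.6 CPM with azaC (-1.45 ± 0.24 (SE), adjusted p = 0.000884), and NOG, a BMP antagonist, at 45.1, 44.5 and 19.4 and 8.84, 12 and 8.2 CPM (1.87 ± 0.35 (SE), adjusted p = 0.00552). PRDX1 (-0.92 ± 0.15), TUBB4B (-1.04 ± 0.19), C1GALT1C1 (-1.40 ± 0.27), HMGCS1 (-1.04 ± 0.20) and the prohibitin PHB1 (-0.97 ± 0.19) were lower with HF, and the transcription co-regulator TBL1X (0.76 ± 0.14) was higher.

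Most stress genes named above were not called between the drugs. SESN2 was at 549, 465 and 535 CPM with HF and 467, 508 and 469 CPM with azaC (0.10 ± 0.16, adjusted p = 0.832). DDIT3 differed by -0.17 ± 0.25, STC2 by 0.42 ± 0.22, ATF3 by -0.54 ± 0.35 and CHAC1 by -0.96 ± 0.39; none of these 4 passed, which does not show that the drugs act alike on them. SLC7A11 (0.92, adjusted p = 0.0303), SLC7A1 (0.93, adjusted p = 0.0143), TRIB3 (1.11, adjusted p = 0.0381) and MTHFD2 (0.60, adjusted p = 0.0373) were higher with HF, and each of these 4 calls was lost without HF replicate 1 or 2, when the fit held only the 6 libraries and in at least 1 more fit without an azaC library. Calls fell from 81 to 3 without HF replicate 2, to 39 without HF replicate 1 and to 17 without azaC replicate 2, which had the highest total and a mitochondrial share of 3.14%; they rose to 222 without azaC replicate 1 and 144 without azaC replicate 3, and 2 were left with only the 6 libraries. HSPA8 and DNAJA1 passed in each of the 11 alternative fits.

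**Figure D5:**
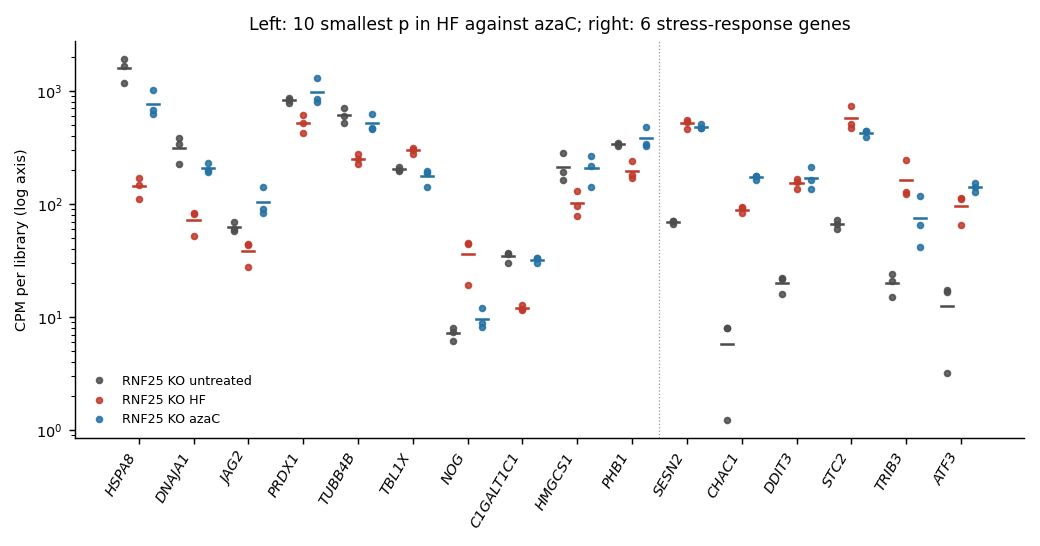
Points are the CPM of single RNF25 KO libraries on a log axis with their mean as a line, untreated in grey, HF in red and azaC in blue, for the 10 genes with the smallest p in HF against azaC (left of the dotted line) and 6 stress genes (right). HSPA8 lies between 112 and 169 CPM with HF and between 621 and 1015 CPM with azaC, while SESN2 lies between 465 and 549 and between 467 and 508 CPM.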

How the data were processed

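The authors deposited raw counts per gene. The submitters' processing notes name STAR 2.7.10b, HTSeq 0.9.1 and the build GRCh38. Which annotation release was used, whether counting was strand-specific and whether molecular identifiers were collapsed is not given in the sources used here. Per the labels' protocols, a Maxwell RSC kit gave the RNA and CORALL mRNA-Seq V2 the libraries. All 45 columns were used and 0 left out. Entries without a symbol in the count file held 0.0286% of counts. They stayed in, under the same filter as all genes, with an updated symbol or their identifier as name. Of 60676 genes 27878 had a count. Symbols were updated by identifier.

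The fit used edgeR 4.0.16 in R 4.3.3, with filterByExpr (minimum count 10, leaving 11078 genes), TMM scaling, and a quasi-likelihood fit over all 45 libraries with 15 group means and 30 residual degrees of freedom. Tests were two-sided with Benjamini-Hochberg adjustment over all genes tested, and genes with an adjusted p under 0.05 were called. The SE of a log2 fold change is its size divided by the square root of F. The 4 comparisons were HF against untreated and against azaC in RNF25 KO cells, and the HF response of RNF25 KO against AAVS1 and against GCN2 KO cells. Alternatives were DESeq2 1.42.0, its size factors, no filter, only the libraries compared, a replicate block and leaving out each library; leaving out AAVS1 untreated replicate 2 from the AAVS1 response was chosen after seeing the data. On simulated data for HF against untreated (10935 genes, 200 changed) the fit recovered 80% of 4-fold and 29% of 2-fold changes, with 6 false among 115 calls.

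The members and the 33 gene lists were chosen with earlier results of these data known, so list counts are descriptions beside the percentage of all genes called. Named are the 15 genes higher and 15 lower with the smallest p, 16 target and pathway genes, up to 4 called members per list or the 2 with the smallest p, and 10 called genes (or 3 with none called) per other comparison; other names were chosen after their values were seen. Positions are from GENCODE 29 on GRCh38 and promoter sequences from RefSeq on GRCh38.p14. A result of the cholesterol list is not reported here. No replicates held copied values. A count of 3 corresponded to 1.76 to 2.40 CPM in the 6 libraries, which covers counting error only.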

Additional observations from a re-analysis of the deposited data

Results flagged for a closer look

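The HF response differed between RNF25 KO and GCN2 KO cells by a test of the difference itself, in 28 genes with a higher and 2 with a lower response in RNF25 KO cells. The differences in log2 fold change of the 10 genes with the smallest p were 1.77 for EIF5, 2.31 for SLC38A2, 2.10 for SESN2, 2.40 for HERPUD1, 2.67 for STC2, 2.60 for SLC7A11, 2.40 for XBP1, 1.43 for NDUFB9, 3.86 for DDIT4 and 1.34 for SNHG1. These 10 passed in each of the 17 alternative fits of that comparison.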

How the results depend on the processing

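The count of genes called between HF and untreated RNF25 KO libraries, 192, stayed within 1.5 times under DESeq2 size factors, DESeq2's Wald test, no filter and a fit of only the 6 libraries (142 to 252), and ran from 111 to 218 when 1 library was left out. Of the 192 genes, 190 were called by DESeq2 and 125 with only the 6 libraries; the scalings moved the median of all genes by under 0.1 log2 units. Of 130 genes named for it 100 were called, 63 of them in every alternative and 37 lost in at least 1, and 2 that were not called changed sign: with 1 library left out PDGFRA ran from -0.175 to 0.0014 (above 0 without untreated replicate 1) and SARS2 from -0.024 (without HF replicate 1) to 0.983; DDIT3 against azaC, not called, ran from -0.302 to 0.034 (above 0 without azaC replicate 2). Named genes not called in the main fit could pass in others. Of 11 alternatives, RPL24 passed in 3, ZNF598, VCP, CCNB1 and MT-ND1 in 2 each, and ATF4, JUN and ABCF1 in 1 each. CHAC1 against azaC passed in 1 of 11. With a replicate block 407 genes were called (247 higher, 160 lower), the 192 among them. The block gave 54 calls (41 and 13) against GCN2 KO and 414 (201 and 213) against azaC. The labels do not say that replicate numbers pair libraries. The deviations of same-numbered HF and untreated libraries correlated at 0.05, 0.231 and 0.232. Each HF library correlated best with the untreated library of its own number, for replicate 1 only by 0.05 against 0.0495. Untreated replicate 1 had 0.0577 with HF replicate 3. HF replicate 2 had -0.139 with untreated replicate 3, and HF replicate 3 had -0.271 with untreated replicate 2. Across lines, same-numbered RNF25 KO HF and AAVS1 HF libraries correlated at 0.137, 0.249 and 0.297. Those of RNF25 KO HF and GCN2 KO HF correlated at 0.116, 0.251 and 0.293. Between libraries of different number these values ran from -0.228 to -0.0205 and from -0.286 to 0.0424. Within RNF25 KO cells same-numbered HF and azaC libraries correlated at -0.0195, -0.219 and 0.148. HF replicate 1 had 0.184 with azaC replicate 2, and HF replicate 2 had 0.191 with azaC replicate 1. The block by number is therefore uncertain for the 414 calls. Against AAVS1 the count was 0 under all alternatives, leave-one-out included, except 2 with no filter. Against GCN2 KO, main count 30, DESeq2 called 42 and leaving out libraries gave 23 to 30. Against azaC, main count 81, it was 181 with no filter, 158 by DESeq2's Wald test, 2 with only the libraries compared and 3 to 222 with 1 library left out. Where a fit lost a call the cause was not tested, beyond fewer samples. The median count of a tested gene was 31 to 45 in the 6 libraries; depth was not varied, so its part in changes that were not called was not tested.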

Other observations

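Of the genes called in RNF25 KO cells 88 of the 136 higher and 41 of the 56 lower lay outside the lists. Most genes tested lay outside them as well, since the lists hold 678 entries, some genes repeated, against 11078 genes tested. The genes named here were chosen after their values were seen. IFRD1, a transcription co-regulator whose transcript is tied to eIF2 phosphorylation, went from 26.4, 23.5 and 22.3 to 108, 66.4 and 65.2 CPM (log2 difference 1.74 ± 0.27 (SE), adjusted p = 3.03e-05) and had 1.35 in AAVS1 and -0.25 in GCN2 KO cells. NIBAN1, a stress-induced regulator of translation, rose by 1.72 and KLHL24, a ubiquitin ligase adaptor, by 2.13. Both calls were lost without untreated replicate 1 or HF replicate 2, and that of KLHL24 also without untreated replicate 2 or 3 and with only the 6 libraries, with an adjusted p of up to 0.0784 and 0.174. EIF1, the start codon selection factor, rose by 0.48 (adjusted p = 0.0284), a call lost without any 1 of the 6 libraries (adjusted p up to 0.520). NOG, which binds and blocks BMP ligands (2.33), and the BMP signal mediators SMAD9 (1.85) and SMAD1 (0.99) rose; no list of that pathway was tested. KITLG, the ligand of the receptor KIT, rose by 1.55, the kinase FYN by 1.77 and the deacetylase SIRT1 by 0.96. The SMAD1 and SIRT1 calls were each lost in 5 of 11 alternative fits, among them those without HF replicate 1 or 2, with an adjusted p of up to 0.106 and 0.238.

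Genes lower outside the lists included UTP3 (-1.17), NIP7 (-1.08), COA3 (-0.98), MRPS23 (-0.78), GRPEL1 (-0.71) and IMP3 (-0.63). They were picked after their values were seen. None of them is a member of a list, so the list counts given above, that of ribosome biogenesis included, leave them out. Their calls were lost in 2, 3, 5, 3, 4 and 7 of 11 alternative fits, in that order, with adjusted p of up to 0.308; leaving out HF replicate 2 ended each but that of NIP7, which was lost without HF replicate 1 or untreated replicate 1. COA3 and IMP3 share 42.5 and 59.3% of their exon length with genes on the opposite strand. Of the genes called higher 130 of 136 were protein-coding, and of those lower 54 of 56; 8.49% of all genes tested were not protein-coding.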
